A study of Komagataella pastoris with 15 samples.

Results

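Transcript levels in 3 arrays carrying the label of peak rhHSA expression were set against those in 3 arrays labelled as logarithmic growth, which together are 6 of the 15 arrays of a fermentation series of the yeast Pichia pastoris, named Komagataella pastoris by the labels. The arrays were chosen by their titles. rhHSA is recombinant human serum albumin, the protein that the cultures produced. At both phases total RNA came from whole cells of 3 fermentors of 40 L, numbered 1 to 3 in the labels, so each fermentor gave 1 array to each phase. The rhHSA peak is labelled as the appearance of the highest rate of rhHSA expression, and logarithmic growth carries no further description. The strain, the expression construct and the carbon source at these phases are not given in the sources used here, and the sampling hours listed in the protocol are not tied to phases. The series has 3 more phases, namely the end of glycerol feeding after 40 min without a carbon source, full adaptation to methanol, and the end of fermentation.

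Pichia pastoris is a methylotrophic yeast, one that can live on methanol as its carbon source. On methanol it fills peroxisomes with alcohol oxidase and dihydroxyacetone synthase, and the promoters of these enzymes are repressed by glycerol and glucose. Producers of recombinant protein often place the product behind such a promoter, grow the cells on glycerol and then change the feed to methanol. Probes carry only locus tags in the array files, and the gene table at hand, of 5305 rows, named 0 of the 5039 tags. For that reason neither the enzymes of methanol use nor the transcript of rhHSA was analysed here, the phase label was not checked against them, and values are given by tag, with no gene name and no sequence.

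Each array measured 5039 probes with 3 spots each, and 98.7% to 99.96% of the probes were well above background per array. Levels are given as log2 of the processed signal minus the 75th percentile of the array, so 0 is the level at the 75th percentile, and a difference of 1 is 2-fold. The arrays came from 2 scans, and each phase compared here had fermentor 1 on scan 1 and fermentors 2 and 3 on scan 2. Scan and slide cannot be told apart, and within these phases fermentor 1 and scan 1 cannot be told apart either. The difference between scans was called for 3838 of 5024 tags, so scan was fitted as a block. The differences between logarithmic growth arrays 2 and 3 were smaller than the spot-to-spot noise, with 1.94% of probes beyond it at a nominal 5%, and these arrays were counted as 1 sample, so n = 3 for the rhHSA peak and n = 2 for logarithmic growth. That n = 2 is 1 value per scan, and the SDs hold the difference between scans. The end of fermentation arrays were all on scan 1, so the SDs of that phase hold no such difference and are not comparable. On rhHSA peak array 2, 20.9% of spots were left out as outliers, against 1.69% on array 3. The number of arrays limits the precision.

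Most tags that differed did so by small amounts, in either direction. In the fit reported, differences of 2-fold or more were nearly all falls, and less so under other scalings. Of 5024 tags tested, 2569 differed at an adjusted p below 0.05 in limma (51.1%), 1212 of them higher (24.1%) and 1357 lower (27.0%) at the rhHSA peak than in logarithmic growth. The count depended on the fit, with 772 tags called without a scan block (271 higher, 501 lower), 1217 with only the 6 arrays fitted (462 and 755) and 451 on scan 2 alone (132 and 319). By at least 2-fold, 12 tags were higher (0.239%) and 217 were lower (4.32%). By at least 3-fold, 2 were higher and 19 were lower. The median rise of a called tag was 0.48 and the median fall was -0.59 on the log2 scale, while the median change of all tags was -0.01. Over all tags, 77.6% changed by less than 1.5-fold and 95.3% by less than 2-fold.

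The tail of falls was longer than that of rises, as the plot of change against level shows. The 99th percentile of the change was 0.88 and the 1st was -1.36. Between 0.75 and 1 on the log2 scale there were 117 tags, and between 1 and 1.25 there were 11, whereas the matching intervals of falls held 245 and 135 tags. Falls of more than 1.5 numbered 28 and rises of 1.5 or more numbered 3. The smallest change called was 0.16, with a median SE of 0.11 over the tags tested. The number of 2-fold falls ran from 184 to 241 when each array was left out in turn. The number of 2-fold rises depended more on single arrays, at 39 without rhHSA peak array 1, 24 without rhHSA peak array 2 and 44 without logarithmic growth array 1.

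**Figure D1:**
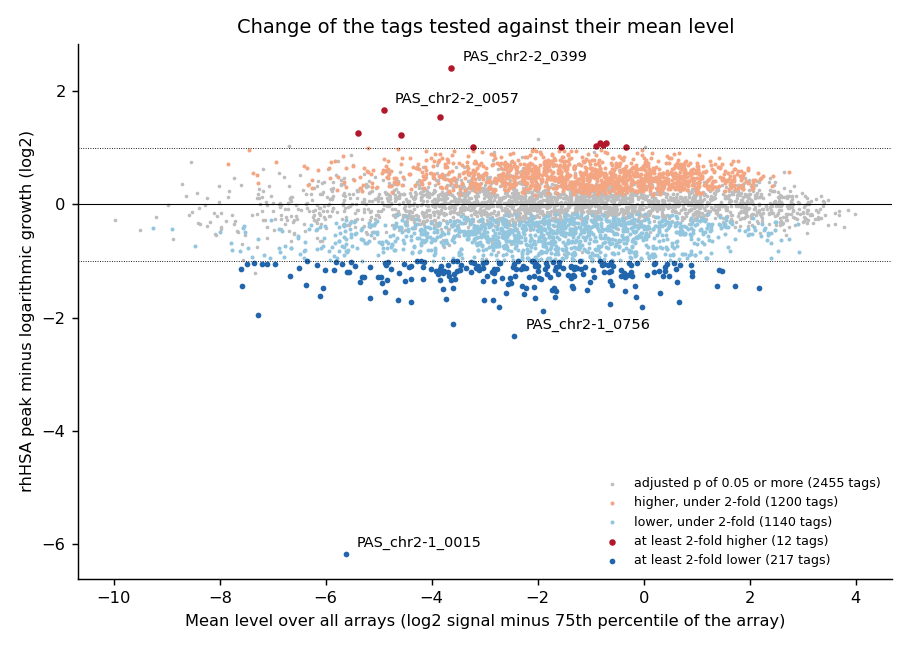
Each point is 1 of the 5024 tags, with its mean level over all arrays (log2 signal minus the 75th percentile of the array) on the x axis and its fitted change, rhHSA peak minus logarithmic growth (log2), on the y axis. Points of called tags are coloured by direction, and the 217 falls of at least 2-fold lie below the lower dotted line while 12 rises lie above the upper one.

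The balance of directions was not the same under every scaling, whereas the excess of large falls was present in each. Quantile normalization gave 1534 tags higher and 970 lower, and with normexp background correction 1076 were higher and 767 lower. Median centring gave 1477 higher and 1150 lower, and the authors' processed values gave 1301 higher and 1115 lower. The median change of all tags was 0.10 with quantile normalization and 0.12 with normexp, against -0.01 with the 75th percentile subtracted. By at least 2-fold, quantile normalization left 54 tags higher and 161 lower, normexp 39 and 113, median centring 27 and 167, and the authors' values 26 and 160. Over all 27 settings run, 7 to 54 tags were at least 2-fold higher and 113 to 241 at least 2-fold lower.

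Many of the differences also separated the single arrays. Of 4424 tags with a value on all 6 arrays, 621 had all 3 rhHSA peak arrays above all 3 logarithmic growth arrays (14.0%; 24.1% of the tags tested were called higher), and 831 had them all below (18.8%; 27.0% were called lower). Levels were not corrected for the scan in this count. Logarithmic growth arrays 2 and 3 were nearly alike, so the 6 arrays are not 6 independent samples here. Among the tags called at least 2-fold and measured on all 6 arrays, the groups did not overlap for 8 of 11 rises and 183 of 209 falls. The calls used these same arrays, which favours such separation. Tags failing the flag for signal well above background had little part in these lists, though nearly all probes passed it. The 7 tags not well above background on any rhHSA peak array, and the 2 on no logarithmic growth array, included no 2-fold call. Of the 229 tags with a 2-fold call, 3 were not well above background on some rhHSA peak array. Dim tags that passed the flag did have a part. The dimmest 1256 tags by mean level held 83 of the 217 falls and 6 of the 12 rises. With normexp background correction the same tags had 11 falls and 30 rises of at least 2-fold.

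The 2 phases had been picked as the closest pair of the series, so their place among the pairs is a description. In the same fit the other 9 pairs of phases had 3111 to 3818 tags called and 424 to 1678 called by at least 2-fold, against 229 here (4.56%). The SD of the change over tags was 0.50 here and 0.60 to 1.09 in the other pairs. Several of these pairs share the arrays compared here. On the same scan, rhHSA peak arrays correlated with logarithmic growth arrays at r from 0.969 to 0.978 over 3991 tags. The r of rhHSA peak arrays was 0.942 to 0.948 with end of glycerol feeding, 0.912 to 0.922 with methanol adaptation, and 0.896 to 0.897 with end of fermentation, where scan 1 alone could be used. These points share the probes, with their differences in brightness, and the slide.

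**Figure D2:**
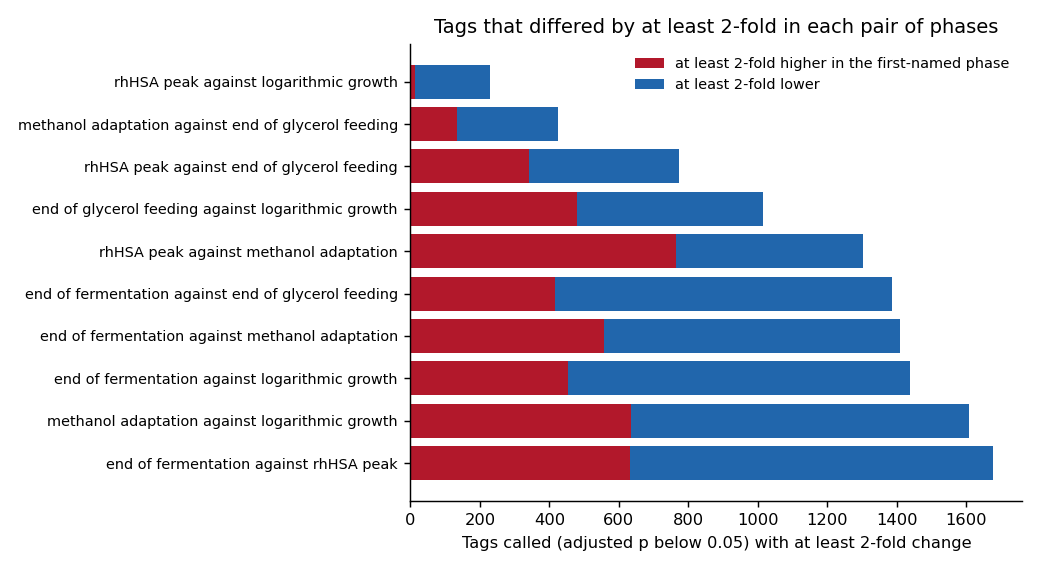
Bars give the number of tags called at least 2-fold lower and at least 2-fold higher for each of the 10 pairs of phases, from 1 fit with scan as a block. The pair of rhHSA peak and logarithmic growth has 217 falls and 12 rises, and the other pairs have 424 to 1678 tags in all.

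The largest rise was that of PAS_chr2-2_0399. Its level was -2.25, -2.14 and -2.62 in rhHSA peak arrays 1 to 3, against -4.77, -4.72 and -4.68 in logarithmic growth arrays 1 to 3. The groups lay far apart, and the arrays of each group lay close together on both scans. The means were -2.34 ± 0.25 (SD, n = 3) at the rhHSA peak and -4.73 ± 0.051 (SD, n = 2) in logarithmic growth. It rose by a fitted 2.40 ± 0.13 (SE), or 5.27-fold (limma adjusted p = 5.89e-07). On scan 1 alone the change was 2.52, and on scan 2 alone 2.32.

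PAS_chr2-2_0399 was also high at the end of glycerol feeding, where its mean was -2.48 ± 0.11 (SD, n = 3). In limma the rhHSA peak did not differ detectably from that phase, with a change of 0.15 ± 0.12 (SE; adjusted p = 0.297). The tag stood lower in methanol adaptation, at -4.19 ± 0.14 (SD, n = 3), and at the end of fermentation, at -4.77 ± 0.038 (SD, n = 3). So its level was high in phases that did not follow each other, with methanol adaptation between them. The rhHSA peak exceeded methanol adaptation by 1.85, and the end of fermentation changed by -2.45 against the rhHSA peak.

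The next largest rise, that of PAS_chr2-2_0057, followed another course. Its level was -5.12, -4.95 and -4.66 in rhHSA peak arrays 1 to 3, against -6.66, -6.51 and -6.58 in logarithmic growth arrays 1 to 3. All rhHSA peak arrays were higher, and the groups did not overlap. As processed signal the levels were 1037, 292 and 681 at the rhHSA peak, against 351, 131 and 111 in logarithmic growth. The means were -4.91 ± 0.23 (SD, n = 3) at the rhHSA peak and -6.60 ± 0.081 (SD, n = 2) in logarithmic growth. It rose by a fitted 1.67 ± 0.12 (SE), or 3.18-fold (limma adjusted p = 2.81e-06). With normexp background correction the rise was 1.78 ± 0.34 (SE; limma adjusted p = 0.00285), so its size is less certain at the low signal of logarithmic growth. Unlike the first tag, it was higher in the phases between, at -3.42 ± 0.12 at the end of glycerol feeding and -3.94 ± 0.17 in methanol adaptation (SD, n = 3 each). At the rhHSA peak it was thus below methanol adaptation, with a change of -0.97 (limma adjusted p = 1.05e-05).

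The largest fall was that of PAS_chr2-1_0015, which was bright in logarithmic growth and near the dim end of the array at the rhHSA peak. Its level was -8.49, -6.78 and -7.32 in rhHSA peak arrays 1 to 3, against -1.40, -1.92 and -1.77 in logarithmic growth arrays 1 to 3. As processed signal these were 101, 82.1 and 108 at the rhHSA peak, against 13519, 3160 and 3126 in logarithmic growth. The probe was called well above background on all 6 arrays, and the groups did not overlap. The means were -7.53 ± 0.87 (SD, n = 3) at the rhHSA peak and -1.62 ± 0.32 (SD, n = 2) in logarithmic growth. Fitted over all arrays, the change was -6.18 ± 0.56 (SE), or 72.6-fold lower (limma adjusted p = 1.03e-05). It was -7.09 on scan 1 and -5.21 on scan 2, so the size of the fall is uncertain at so low a signal.

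PAS_chr2-1_0015 was low in every phase except logarithmic growth and, in part, the end of fermentation. Its means were -6.82 ± 1.13 at the end of glycerol feeding, -6.38 ± 1.78 in methanol adaptation and -4.42 ± 0.033 at the end of fermentation (SD, n = 3 each). The rhHSA peak could not be told from the end of glycerol feeding in limma (change -0.71, adjusted p = 0.222) nor from methanol adaptation (change -1.15, adjusted p = 0.0555). Processed signals at the end of glycerol feeding were 94.4, 85.8 and 109, as dim as at the rhHSA peak, where a difference may not show. In methanol adaptation they were 118, 224 and 592, so its scan 2 arrays stood above those of the rhHSA peak (82.1 and 108). At the end of fermentation the tag was higher than at the rhHSA peak by 4.20 on the log2 scale (limma adjusted p = 3.68e-05).

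PAS_chr2-1_0756 had the second largest fall by the same rule. Its level was -2.45, -3.55 and -3.09 in rhHSA peak arrays 1 to 3, against -0.18, -1.10 and -0.87 in logarithmic growth arrays 1 to 3. In both groups the array of scan 1 was the highest, and the groups did not overlap. The means were -3.03 ± 0.56 (SD, n = 3) at the rhHSA peak and -0.58 ± 0.57 (SD, n = 2) in logarithmic growth. Fitted over all arrays, the change was -2.33 ± 0.17 (SE), or 5.03-fold lower (limma adjusted p = 2.58e-06). Within the scans it was nearly the same, at -2.26 on scan 1 and -2.34 on scan 2.

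Of the phases outside the comparison, the end of fermentation had this tag high. PAS_chr2-1_0756 averaged -4.29 ± 0.32 at the end of glycerol feeding, -3.55 ± 0.47 in methanol adaptation and -0.13 ± 0.016 at the end of fermentation (SD, n = 3 each). The last SD is of nearly alike arrays of scan 1 alone. With scan as a block the end of fermentation did not differ detectably from logarithmic growth, with a change of 0.09 ± 0.18 (SE; limma adjusted p = 0.652). The plot of the 4 named tags over the 5 phases shows these courses array by array. Each of the 4 kept its direction and its call under every alternative run on it, 104 of 104 in all. They were chosen as the largest called changes without overlap between groups on these same arrays. Their calls and lack of overlap are thus a description and no separate check.

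**Figure D3:**
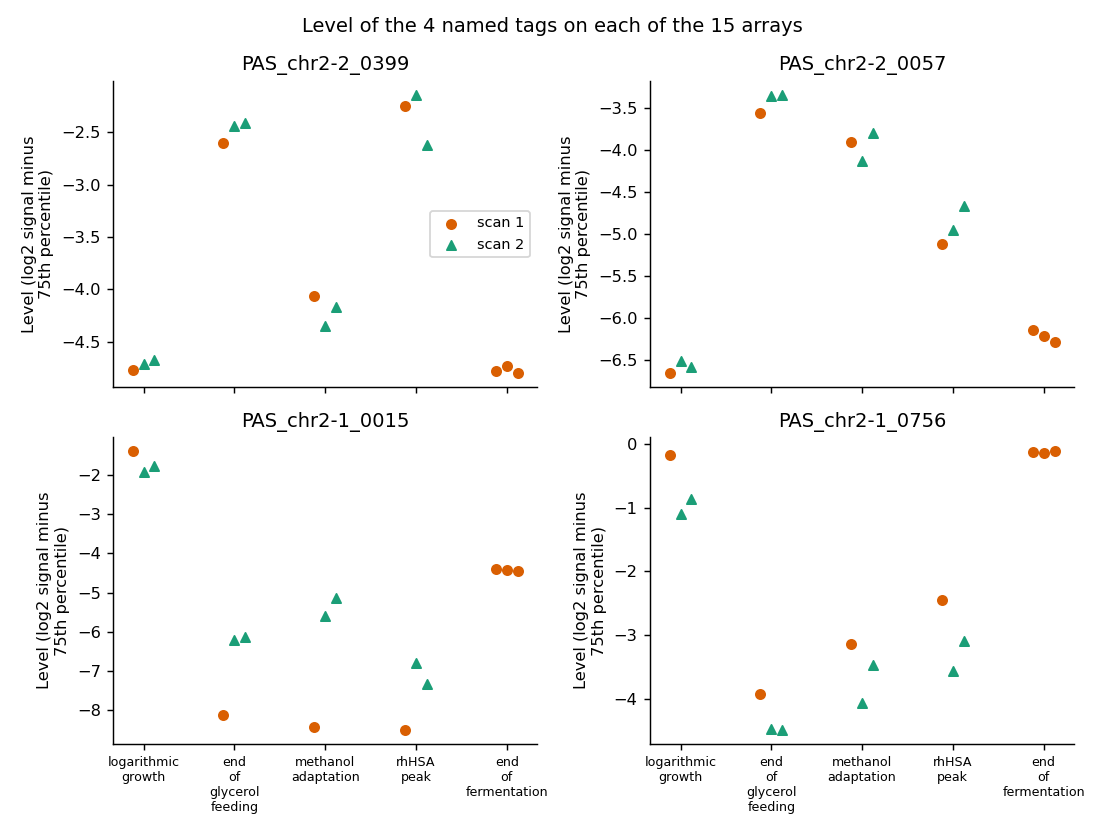
Each panel shows 1 of the 4 named tags, with the 5 phases in order of the fermentation on the x axis and the level of each array (log2 signal minus the array's 75th percentile) on the y axis. Points are single arrays, marked by scan, and PAS_chr2-1_0015 is the tag with the widest gap, between -8.49 and -6.78 at the rhHSA peak and between -1.92 and -1.40 in logarithmic growth.

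Most tags changed in the same direction on either scan. Over 4424 tags, 84.9% changed in the same direction on scan 1 and on scan 2, and the changes correlated at r = 0.867 across tags, which share probes and normalization. All 209 falls of at least 2-fold with values on all 6 arrays were falls on either scan, with medians of -1.23 on scan 1 and -1.17 on scan 2. The 11 rises of that size had medians of 1.08 and 1.12. Both scans went into choosing these tags, so their shared direction is a description.

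Fermentor 3 differed from the other fermentors in its rises. Comparing the rhHSA peak with logarithmic growth within a fermentor, 16 tags were at least 2-fold higher and 246 lower in fermentor 1, and 14 were higher and 248 lower in fermentor 2. In fermentor 3, 192 tags were higher and 205 lower. Each of these is a difference of 2 arrays with no test. The changes of fermentors 1 and 2 correlated at r = 0.918 across 4424 tags, those of fermentors 1 and 3 at 0.696 and those of fermentors 2 and 3 at 0.702, the last pair sharing a scan.

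**Figure D4:**
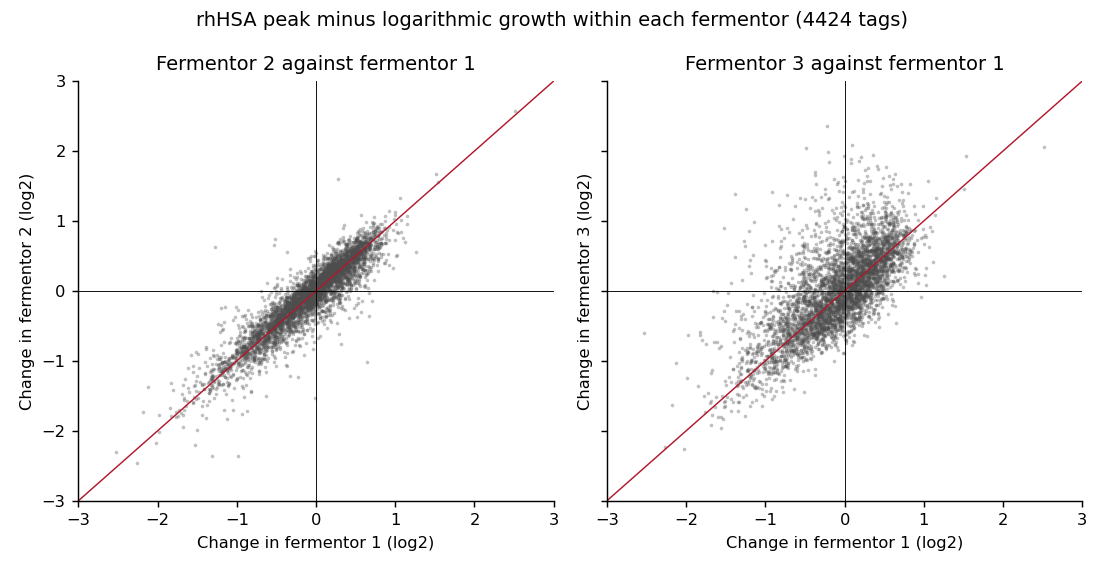
Each point is a tag with values on all 6 arrays, with its change, rhHSA peak minus logarithmic growth (log2) in fermentor 1 on the x axis and in fermentor 2 (left) or 3 (right) on the y axis. Both axes run from -3 to 3, which leaves out 1 of 4424 tags, and more tags lie well above the diagonal in fermentor 3 than in fermentor 2.

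Between fermentors 2 and 3 it was the rhHSA peak arrays that differed, while the logarithmic growth arrays were nearly alike. The difference of array 3 minus array 2 had an SD over 4355 tags of 0.41 at the rhHSA peak and 0.088 in logarithmic growth. In rhHSA peak array 3, 144 of 4381 tags were at least 2-fold above array 2, and 1 was at least 2-fold below. These 144 tags were dim, with a median level over all arrays of -4.10 against -1.82 for all tags. Of them, 13 (9.03%) were called between the phases, against 52.1% of the 4381 tags. Choosing tags by a gap between rhHSA peak arrays raises the spread that the test uses, so a low share called follows from the choice. The matching difference in methanol adaptation, outside the comparison, had an SD of 0.40 and correlated with that of the rhHSA peak at r = 0.82 across tags. There, 63 of the 144 tags (43.8%) were at least 2-fold higher in array 3, against 2.44% of all tags. In both phases array 3 was brighter than array 2, with a 75th percentile signal of 17214 against 9026 at the rhHSA peak and 20731 against 10780 in methanol adaptation. The part of brightness, of the outlier spots on array 2 and of the culture in this difference was not tested.

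The tags that fell were spread over the courses of the other phases, and those that rose by 2-fold had mostly been high before. Of the 217 falls of at least 2-fold, 134 had their highest fitted level in logarithmic growth (61.8%; 23.7% of all tags) and 110 their lowest at the rhHSA peak (50.7%; 16.5% of all tags). Choosing tags by this contrast favours both. The highest level was at the end of fermentation for 57 of the 217, in methanol adaptation for 14 and at the end of glycerol feeding for 12. Relative to logarithmic growth, their median level was -0.64 at the end of glycerol feeding, -0.89 in methanol adaptation, -1.18 at the rhHSA peak and -0.51 at the end of fermentation.

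The 12 rises had a median level relative to logarithmic growth of 1.59 at the end of glycerol feeding, 1.11 in methanol adaptation, 1.07 at the rhHSA peak and 0.01 at the end of fermentation. Of these tags 7 were highest at the end of glycerol feeding, 4 at the rhHSA peak and 1 in methanol adaptation. Rises of any size, 1212 tags, had medians of 0.45, 0.48, 0.48 and -0.07 in the same order of phases. Falls of any size, 1357 tags, had medians of -0.45, -0.61, -0.59 and -0.30, and all tags had -0.01, -0.11, -0.01 and -0.22. All these levels are set against the same logarithmic growth arrays, so a tag that happened to be high or low there is shifted alike in every phase.

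**Figure D5:**
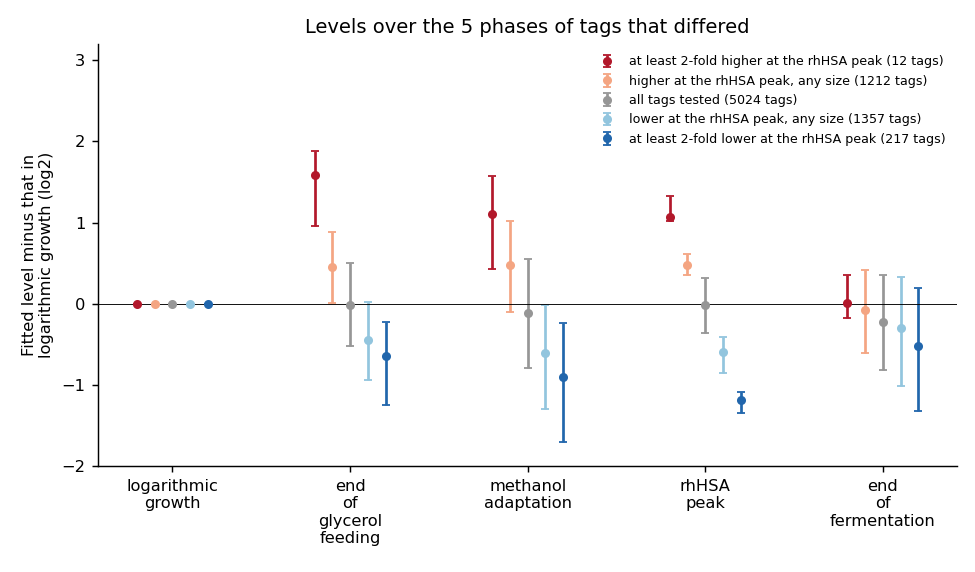
For 5 lists of tags, points give the median fitted level minus that in logarithmic growth (log2, y axis) over the 5 phases in order of the fermentation (x axis), and bars run over the middle 50% of tags. The 12 largest rises stand at 1.59 at the end of glycerol feeding and near 0 at the end of fermentation, and the 217 largest falls stand below 0 at each later phase, with the lowest median at the rhHSA peak.

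Contrasts between the other phases do not take logarithmic growth as their reference. The end of fermentation arrays were all on scan 1, so contrasts with that phase rest on the fitted scan difference. The arrays compared here went into that scan difference, so these contrasts are not fully independent of them. The 217 falls of at least 2-fold were more often higher at the end of fermentation than at the end of glycerol feeding, 107 tags (49.3%; 28.7% of all tags), than lower, 57 tags (26.3%; 45.0% of all tags), with a median change of 0.30 against -0.21 for all tags. Against methanol adaptation, 115 of them were higher at the end of fermentation (53.0%; 33.3% of all tags) and 43 lower (19.8%; 38.2%), with a median of 0.43 against -0.07. Between methanol adaptation and the end of glycerol feeding, 41 were higher (18.9%; 22.4%) and 106 lower (48.8%; 39.5%). Among the 12 rises, 1 tag was higher at the end of fermentation than at the end of glycerol feeding and 10 were lower. Of the 1212 rises of any size, 217 were higher (17.9%) and 771 lower (63.6%) in that same pair.

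Read the other way, tags chosen as higher at the end of fermentation were more often lower than higher at the rhHSA peak, and tags chosen as lower there were more often higher. Of 416 tags at least 2-fold higher at the end of fermentation than at the end of glycerol feeding (8.28% of all tags), 56 were higher (13.5%; 24.1% of all tags) and 184 lower (44.2%; 27.0% of all tags) at the rhHSA peak than in logarithmic growth, with a median change of -0.23. Of 970 tags at least 2-fold lower in that pair (19.3% of all tags), 343 were higher (35.4%) and 170 lower (17.5%), with a median of 0.18. With methanol adaptation in place of the end of glycerol feeding, 558 tags at least 2-fold higher at the end of fermentation (11.1% of all tags) had a median of -0.26, and 851 lower ones (16.9%) had 0.29.

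The medians kept these signs when no scan was shared. Lists chosen on scan 1 arrays alone had their change read on scan 2 arrays alone, where all tags had a median of -0.01 and 49.4% were above 0. The 424 tags higher at the end of fermentation than at the end of glycerol feeding then had a median of -0.26, with 35.6% above 0, and the 800 lower ones had 0.23, with 66.1% above 0. Against methanol adaptation the 508 higher tags had a median of -0.30, with 30.1% above 0, and the 813 lower ones had 0.30, with 72.3% above 0. No test was made of these lists.

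At the rhHSA peak, tags that set methanol adaptation apart from the end of glycerol feeding had medians close to their logarithmic growth level. This closeness was not particular to them, as all tags had a median of -0.01 between these phases. Quartiles of that change were -0.22 and 0.39 for tags at least 2-fold higher in methanol adaptation. They were -0.43 and 0.17 for tags at least 2-fold lower in it, and -0.36 and 0.31 for all tags. With quantile normalization the medians of the higher and lower tags were 0.31 and -0.011, against 0.10 for all tags. The 134 tags at least 2-fold higher in methanol adaptation (2.67% of all tags) had a median of 1.42 in methanol adaptation and 0.13 at the rhHSA peak, both against logarithmic growth, with 31 called higher (23.1%; 24.1% of all tags) and 24 called lower (17.9%; 27.0% of all tags) at the rhHSA peak. The 290 tags at least 2-fold lower in methanol adaptation (5.77% of all tags) had medians of -1.39 in methanol adaptation and -0.14 at the rhHSA peak, with 49 higher (16.9%) and 98 lower (33.8%), to be read against the same shares of all tags. Which of these tags serve methanol use is not given in the files.

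How the calls were spread over dim and bright tags depended on the background correction and scaling. With the tags split into 4 equal groups of 1256 by mean level, the shares called lower were 29.1%, 31.1%, 28.8% and 19.0% going from the dimmest group to the brightest, and the shares called higher were 14.9%, 22.5%, 30.1% and 29.0%. Falls of at least 2-fold numbered 83, 63, 46 and 25 in the same order. In the dimmest group the direction depended on the scaling, with 25.9% higher and 19.3% lower under quantile normalization and 13.3% higher and 3.50% lower with normexp, whereas median centring gave 21.2% higher and 26.2% lower. With normexp the order of the groups changed too, with 3.50%, 18.8%, 22.9% and 15.9% called lower and 11, 34, 40 and 28 falls of at least 2-fold, again dimmest first. In the dimmest group normexp gave 30 rises of at least 2-fold.

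Called tags were spread over the prefixes of the tags. Over 7 tag prefixes (the tag without its final number) with at least 100 tags each, 4892 tags in all, 23.1% to 27.3% were called higher and 25.1% to 29.3% lower. Falls of at least 2-fold made up 1.73% to 5.33% of the tags of a prefix. Among 4765 pairs of tags with adjacent numbers the changes correlated at r = 0.036, and in 12 pairs both tags fell by at least 2-fold.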

How the data were processed

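Total RNA of 1 fermentor per array was turned into cRNA carrying Cy3, per the labels. Spot intensity in the deposited scanner files is linear and background-subtracted within each array, from Agilent Feature Extraction 10.7.3.1 per the file headers, whereas the submitters' processing notes name version 9.1. A table deposited by the authors holds log2 values of 3915 of the 5039 tags, with column medians of 12.6 to 12.7 and r of 0.983 to 0.988 with the scanner values. Its scale is log2 and its direction that of the signal, while its centring is unknown.

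Log2 of the processed signal minus the array's 75th percentile was averaged over 3 spots, without non-uniform or population outlier spots. The 5024 tags tested had at least 2 of 3 spots well above background on every array of 1 or more phases. Logarithmic growth arrays 2 and 3 were averaged. Beyond spot noise were 6.70% to 8.85% of probes in pairs of end of fermentation arrays and 7.67% in end of glycerol feeding arrays 2 and 3. The matching pair had 51.4% at the rhHSA peak and 55.6% in methanol adaptation. Nearly alike arrays of the end of fermentation and of glycerol feeding were fitted as separate samples, which can make p-values too small. With these averaged too, the limma adjusted p of PAS_chr2-2_0399 was 0.000135 instead of 5.89e-07. The 5 phases and the scan were fitted to all 15 arrays by lmFit, contrasts.fit and eBayes of limma 3.58.1, under R 4.3.3. Tests were two-sided, with Benjamini-Hochberg adjustment over all tags and a threshold of 0.05. The procedure was run on data simulated from the same model with independent noise per array. Such data cannot show the effect of nearly alike arrays or of dim signals. Figures used matplotlib 3.10.9 under Python 3.11.15. The p-values measure the spread between these arrays.

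Labels give the same fermentor number at both phases, so the numbers pair the arrays by culture. Deviations from the phase means correlated across 4424 tags at r = 0.942 for fermentor 1, which is also scan 1, 0.897 for fermentor 2 and 0.408 for fermentor 3. Both phases had the same scan layout, so a scan difference can raise the r of fermentors 2 and 3 too. Whether the arrays pair by culture cannot be read from these r.

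Named tags are the 2 largest rises and 2 largest falls among called tags with a value, well above background, on all 6 arrays and no overlap between groups. The comparison and the lists were chosen with earlier results of these data known. Alternatives covered scaling, background correction, filters, scan and fermentor terms, the arrays fitted, array weights and the authors' values. The planned gene lists were not used, as the tags have no names here, and normexp was run on the median spot signal, since the files hold no mean signal.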

Additional observations from a re-analysis of the deposited data

How the results depend on the processing

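Fits with fermentor as a replicate block kept logarithmic growth arrays 2 and 3 separate. They called 1975 tags (886 higher, 1089 lower), against 1097 (443 and 654) with these arrays separate and no block, and 2921 with the scan block added, against 2928 with the scan block alone. The pairing changed no named call. Against 2569 in the fit reported, the count without a scan block was 772 (271 higher, 501 lower; 7 at least 2-fold higher). With only the 6 arrays it was 1217 (462 and 755), and on scan 2 alone, with fewer arrays, 451 (132 and 319). Requiring 2-fold left 229 (12 and 217). Leaving out each array in turn gave 1987 to 2570 calls, 964 to 1210 higher and 1023 to 1403 lower, with 11 to 44 higher and 184 to 241 lower by at least 2-fold. Array weights gave 3648. Averaging all near-identical arrays, those of the end of fermentation included, gave 2048 (922 higher, 1126 lower). Rises of at least 2-fold numbered 27 with median centring, 54 with quantile normalization, 26 in the authors' values, 39 with normexp (767 tags lower, 113 by at least 2-fold) and 28 without the rhHSA peak and methanol adaptation arrays of fermentor 2, a choice made, like normexp on the median signal, after seeing the data. The other pairs of phases had at least 424 and at most 1678 tags called by 2-fold, and at least 1319 without a scan block. The cause of these shifts was not tested beyond the arrays left out.

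Medians between rhHSA peak and logarithmic growth of lists chosen on other phases also moved. Tags higher in methanol adaptation than at the end of glycerol feeding had 0.31 with quantile normalization. Tags lower in that pair had -0.011 with it, -0.067 with median centring and -0.21 with the list on scan 1 and the change on scan 2. Tags higher at the end of fermentation than at the end of glycerol feeding had -0.28 without a scan block, -0.11 with quantile normalization, -0.15 with median centring and -0.26 split by scan, and lower ones had 0.42 and 0.26 with quantile normalization and median centring. No named change or list median turned its sign. Which direction had more calls did turn, with more tags higher than lower under median centring, quantile normalization and normexp and in the authors' values.

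Over their alternatives the named changes ran from 2.30 to 2.71 for PAS_chr2-2_0399 (limma adjusted p up to 0.0206), 1.55 to 1.79 for PAS_chr2-2_0057 (0.0211), -6.29 to -4.43 for PAS_chr2-1_0015 (0.0187) and -2.45 to -2.07 for PAS_chr2-1_0756 (0.0244).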
